A study of Mus musculus with 6 samples.

Results

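A set of 10 mouse genes of epithelial cell adhesion are described here in 4 lung tumors and 2 samples of normal lung. They are Cdh1 and Epcam, which make surface adhesion molecules, the keratin genes Krt7, Krt8 and Krt18, the claudin genes Cldn3, Cldn4 and Cldn7, and the regulators Esrp1 and Grhl2. They were taken by name from the 22477 genes of the deposited count table, and were selected on their measured levels in these same 4 tumors, which varied widely. Their variation between tumors is therefore a description and carries no test. All 10 had enough counts to be tested among 18027 genes.

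The tumors arose in RPM mice, which carry Rb1 fl/fl and p53 fl/fl alleles together with Myc lsl/lsl T58A, so that Cre deletes both tumor suppressors and turns on a long-lived Myc protein, and which model small cell lung cancer. Cre came from an adenovirus put into the trachea at 8 weeks of age (Ad5CGRP-Cre), whose CGRP promoter aims it at pulmonary neuroendocrine cells. The labels give the same genotype and virus for the 4 tumors (tumor 3, 4, 5 and 6) and for the 2 pieces of normal lung (normal 1 and 2), each from a different mouse and all in 1 batch. Tumor-bearing mice of the study were assigned to vehicle, entinostat, anti-PD-1 antibody or both agents, but the labels give no arm for these libraries, so treatment and other differences between tumors cannot be told apart.

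E-cadherin, the product of Cdh1, holds neighboring epithelial cells together at adherens junctions, while claudins seal the space between cells at tight junctions and keratins form the filaments of simple epithelia. Esrp1 directs splicing toward epithelial isoforms, and Grhl2 is a transcription factor that maintains junction genes, including Cdh1. Small cell lung cancer is a neuroendocrine carcinoma whose cells can carry more or less of this epithelial program, and the repressors Zeb1, Zeb2, Snai1 and Snai2 act on many of these genes through the E-box CACCTG.

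Promoter sequence is shown because that E-box is a short, countable feature of promoters. Whether it bears on the members' levels was not tested. RefSeq promoter windows on GRCm38.p6 were at hand for 7 of the 10 genes, in 8 windows, and none for Cdh1, Esrp1 and Grhl2. The 250 bases before the start of transcription were searched on both strands. CACCTG or its reverse complement CAGGTG lay in 6 of the 8 windows, of 6 different genes, against 17.2% of all 32851 windows of that length. The palindrome AACNNGTT, a short form of the motif of Grainyhead-like factors, lay in 0 of the 8 and in 3.64% of all windows. The shares over all windows are not matched for base composition, and a match of letters is a description and not a binding site. The 5 windows below, with the E-box letters in capitals, are those of Epcam (chr17:87635729-87635978, plus strand), Krt7 (chr15:101412153-101412402, plus strand), Krt8 (chr15:102004343-102004592, minus strand), Cldn4 (chr5:134946935-134947184, minus strand) and the second start of Cldn7 (chr11:69965171-69965420, plus strand), each written from 5′ to 3′ with its last base next to the start.
Epcam: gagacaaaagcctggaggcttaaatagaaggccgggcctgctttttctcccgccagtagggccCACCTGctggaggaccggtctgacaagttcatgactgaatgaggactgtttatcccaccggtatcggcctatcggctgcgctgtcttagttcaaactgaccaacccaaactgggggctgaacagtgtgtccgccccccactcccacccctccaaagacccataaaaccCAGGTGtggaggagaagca
Krt7: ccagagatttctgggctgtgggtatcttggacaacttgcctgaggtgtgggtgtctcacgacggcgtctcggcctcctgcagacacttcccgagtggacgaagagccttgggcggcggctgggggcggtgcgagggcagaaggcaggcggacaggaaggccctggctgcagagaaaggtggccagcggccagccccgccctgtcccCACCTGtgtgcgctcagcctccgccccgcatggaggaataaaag
Krt8: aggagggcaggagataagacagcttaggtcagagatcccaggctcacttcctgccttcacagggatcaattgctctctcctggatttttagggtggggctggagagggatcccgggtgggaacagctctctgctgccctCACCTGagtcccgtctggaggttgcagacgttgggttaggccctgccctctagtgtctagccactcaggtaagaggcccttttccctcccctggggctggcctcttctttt
Cldn4: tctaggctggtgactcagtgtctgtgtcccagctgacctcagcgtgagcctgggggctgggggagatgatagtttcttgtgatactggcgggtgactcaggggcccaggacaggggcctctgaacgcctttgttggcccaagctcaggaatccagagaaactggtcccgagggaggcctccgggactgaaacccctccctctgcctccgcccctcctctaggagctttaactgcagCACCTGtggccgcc
Cldn7: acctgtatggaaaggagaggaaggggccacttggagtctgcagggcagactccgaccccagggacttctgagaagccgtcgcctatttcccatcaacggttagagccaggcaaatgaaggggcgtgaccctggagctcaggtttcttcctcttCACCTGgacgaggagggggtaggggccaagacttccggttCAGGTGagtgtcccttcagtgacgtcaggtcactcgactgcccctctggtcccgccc
The Krt18 window also held the E-box, and the windows of Cldn3 and of the first start of Cldn7 did not. In the Epcam and Cldn7 windows it occurred at 2 places, at 187 and 19 bases before the start of Epcam and at 97 and 57 bases before that of Cldn7.

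Libraries held 54735438 to 70817440 counts for tumors and 91049413 to 99122494 for normal lung, so the members' levels rest on 44 to 43846 counts each. Spearman correlations over the tested genes ran from 0.942 to 0.976 between tumors, from 0.675 to 0.727 for tumor with normal lung, and reached 0.995 for the normal pair. Levels are given as CPM, counts scaled to a common library size, after TMM scaling, which evens out differences in RNA composition. In pieces of whole tissue, fewer cells of a type and less RNA per cell cannot be told apart.

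The members stood highest in 1 tumor. Tumor 4 was the highest of the 4 tumors for 10 of 10 members, a position it held for 28.6% of all genes tested. Its level was 5.90 to 27.2 times that of the next tumor, with a median of 13.8. The next tumor in turn stood 1.25 to 5.48 times above the lowest, with a median of 2.41, so the other three tumors lay much closer to each other. From the lowest to the highest tumor the members spanned 3.24 to 6.74 on the log2 CPM scale, with a median of 5.45, against a median of 0.86 over all genes tested. A range at least as wide as that of the narrowest member, Krt18, occurred in 7.14% of genes. The normal pair differed by at most 1.35-fold for any member.

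Cdh1 stood at 13.0, 213, 12.7 and 5.58 CPM in tumors 3, 4, 5 and 6, and at 445 and 377 CPM in normal 1 and 2. Every tumor lay below both normal libraries, but tumor 4 reached 0.519 of the normal mean while the lowest, tumor 6, was 73.7-fold below it. Epcam, the gene of a homophilic adhesion molecule of epithelial surfaces, measured 8.61, 234, 7.23 and 2.17 CPM in tumors 3 to 6, against 73.1 and 72.8 CPM in normal lung. Here tumor 4 was 3.21 times the normal mean, and the other three were below both normal libraries. Epcam had the widest span of the members, 108-fold between tumors 4 and 6. The ratio of Epcam to Cdh1 counts was 0.661, 1.10, 0.569 and 0.389 in tumors 3 to 6, against 0.164 and 0.193 in normal lung, so every tumor held more Epcam relative to Cdh1 than either normal library did.

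The 3 keratins formed the filament part of the set. Krt8 and Krt18, which encode the partner keratins of simple epithelia, are neighbors on chromosome 15. Krt8 had 15.8, 228, 11.4 and 4.49 CPM in tumors 3 to 6, against 186 and 202 CPM in the normal pair. Krt18 had 15.7, 105, 11.1 and 13.5 CPM in tumors 3 to 6, against 116 and 125 CPM in the normal pair. Tumor 4 was above both normal libraries for Krt8 and below both for Krt18, while tumors 3, 5 and 6 were below both for each gene. The ratio of Krt8 to Krt18 counts, which also depends on their lengths, was 1.00, 2.17, 1.03 and 0.332 in tumors 3 to 6, against 1.60 and 1.61 in normal lung. The partners did not keep 1 ratio across tumors, and it was lowest in tumor 6, which had the lowest Krt8 level of the tumors but not the lowest Krt18 level. A processed copy of Krt8, Krt8-ps, is annotated and has no row of its own, so how its reads were counted is not known.

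Krt7, a keratin of glandular and airway epithelium, measured 34.1, 202, 33.8 and 19.3 CPM in tumors 3 to 6, against 308 and 301 CPM in normal lung. All 4 tumors were below both normal libraries, and tumor 4 stood at 0.662 of their mean.

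Cldn3 and Cldn4, neighboring genes on chromosome 5, did not keep the same position relative to normal lung. Cldn3 had 3.61, 37.0, 3.20 and 0.658 CPM in tumors 3 to 6, against 84.0 and 77.0 CPM in the normal pair, with all tumors below. Cldn4 had 2.94, 24.5, 2.34 and 2.75 CPM in tumors 3 to 6, against 5.38 and 7.28 CPM in the normal pair. The ratio of Cldn3 to Cldn4 counts was 1.23, 1.51, 1.37 and 0.239 in tumors 3 to 6, against 15.6 and 10.6 in normal lung. The tumor 4 level of Cldn4 was 3.87 times the normal mean, the highest such ratio of the members, and tumors 3, 5 and 6 differed by at most 1.25-fold. Cldn7, which encodes a claudin that also binds Epcam at the lateral membrane, had 2.29, 51.8, 1.78 and 0.928 CPM in tumors 3 to 6, against 34.7 and 33.4 CPM in normal lung. Tumor 4 lay above the normal pair and the other three below. Wbscr25 overlaps Cldn3 on the opposite strand, and it held 5, 38, 6 and 0 counts in tumors 3 to 6 and 125 and 117 in normal lung, beside 242, 1885, 246 and 44 Cldn3 counts in tumors and 8268 and 7138 in normal lung. Without the strand setting, reads of the overlapping stretch cannot be told apart.

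The 2 regulators differed from the other members in which tumor was lowest. Esrp1 had 1.33, 108, 1.54 and 4.83 CPM in tumors 3 to 6, against 34.5 and 28.9 CPM in normal lung, and tumor 4 was 3.40 times the normal mean. Grhl2 had 1.46, 40.7, 3.09 and 2.87 CPM in tumors 3 to 6, against 37.2 and 36.2 CPM in normal lung, and tumor 4 was 1.11 times the normal mean. Both were lowest in tumor 3, where 89 Esrp1 and 98 Grhl2 counts were found. The lowest tumor was tumor 6 for 6 members, as it was for 23.9% of all genes, and tumor 5 for Krt18 and Cldn4. The order tumor 4, 3, 5, 6 from high to low was shared by Cdh1, Epcam, Krt7, Krt8, Cldn3 and Cldn7, and 5.43% of all genes had it. With 4 tumors no correlation coefficient is given. As a measure of likeness, the root mean square difference between a gene's log2 CPM, centered on the 4 tumors, and the members' mean profile (-0.80, 3.19, -0.89 and -1.50 in tumors 3 to 6) was smallest for Cdh1 at 0.24 and largest for Esrp1 at 1.15.

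**Figure D1:**
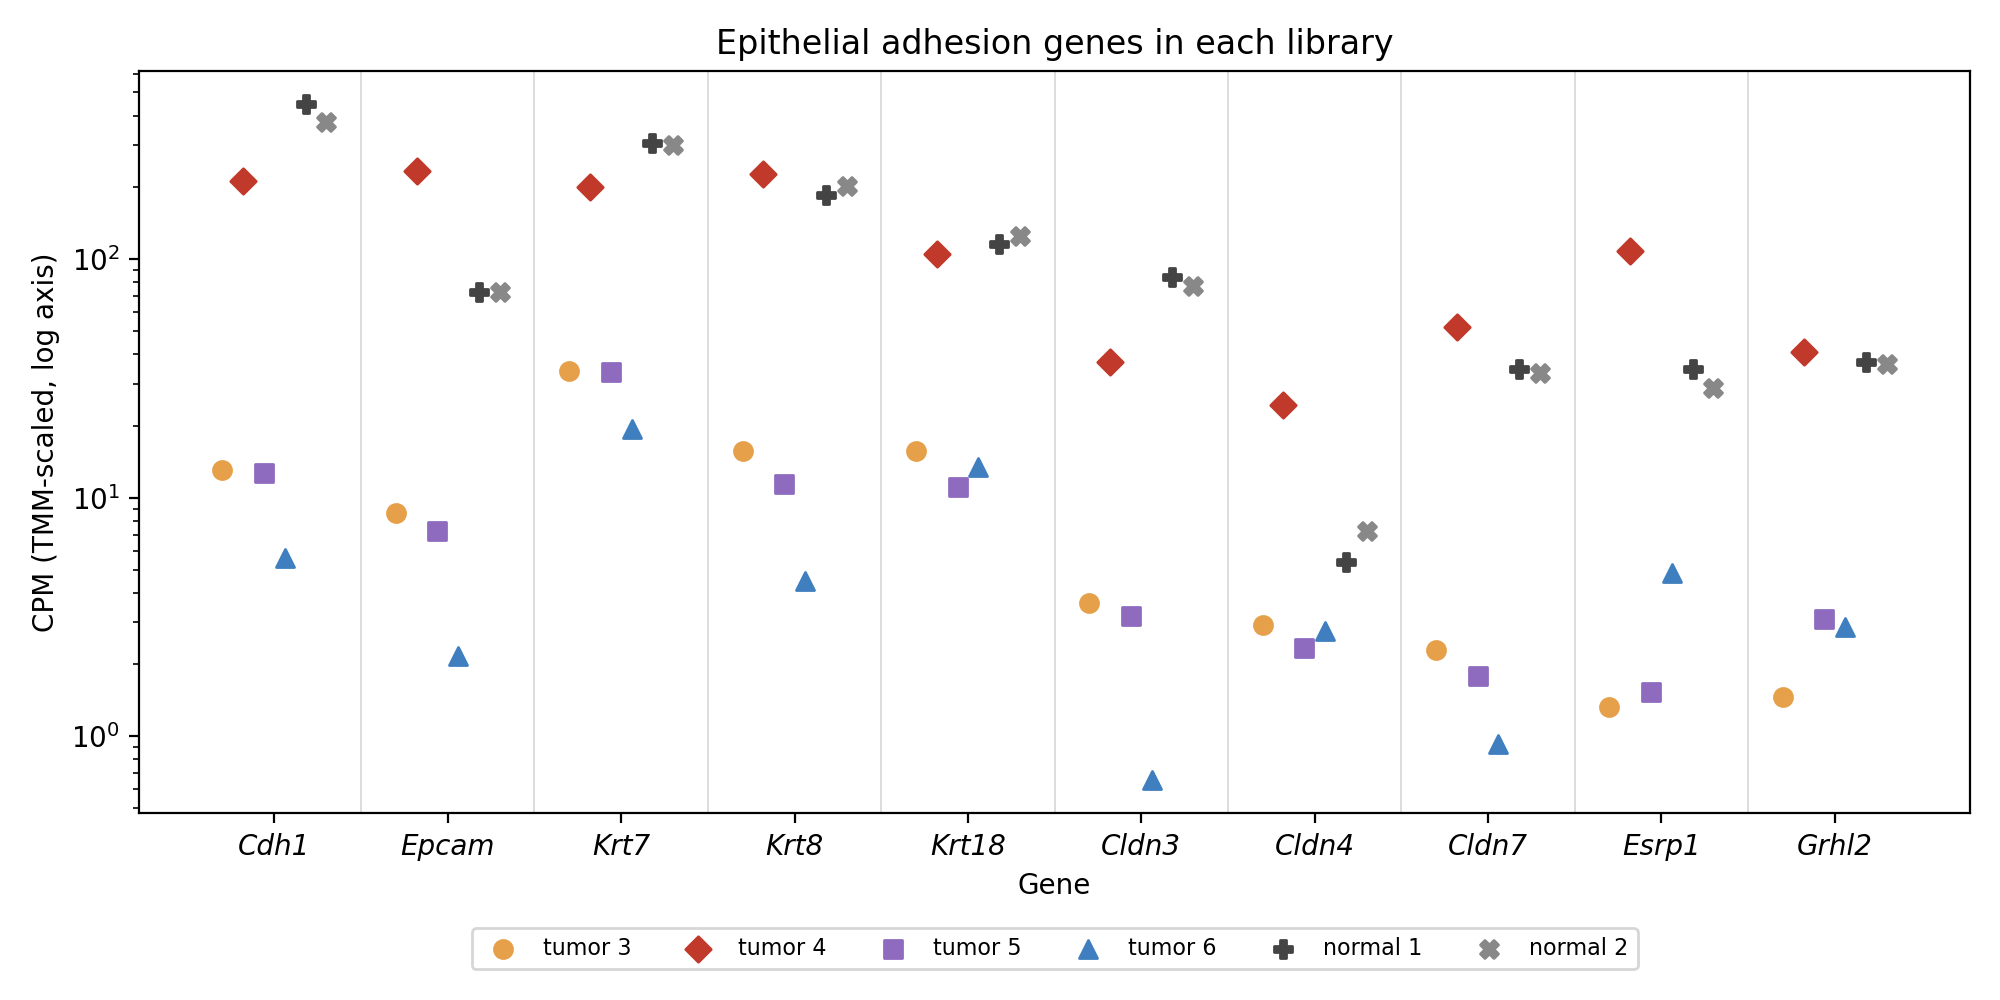
Level of each member in each library, in CPM on a log axis, with 1 point per library, the tumors left of the normal libraries. The red diamonds of tumor 4 stand above the other three tumors for all 10 genes, 5.90-fold for Krt7 to 27.2-fold for Epcam, and above both normal libraries for 6 of them.

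Set against normal lung, tumor 4 ranged from 0.460 to 3.87 times the normal mean over the members. Some members lay close to that mean, such as Krt18 at 0.870 and Grhl2 at 1.11 times. Tumor 4 was above both normal libraries for Epcam, Krt8, Cldn4, Cldn7, Esrp1 and Grhl2, as it was for 46.3% of all genes, and below both for Cdh1, Krt7, Krt18 and Cldn3, so that only these 4 members had tumor and normal levels that did not overlap, all lower in tumors. All tumors lay below both normal libraries for 39.8% of the genes tested and above both for 37.4%. Tumors 3, 5 and 6 were below both normal libraries for 10 of 10 members, as they were for 42.2% of genes, and the pattern of tumor 4 above with the other three below, seen in 6 members, was seen in 1.75% of genes.

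The comparison of tumor with normal lung asks which genes differ with the tissue, and the tumor levels that chose the members also enter it. With all libraries, 0 of the 10 members passed the quasi-likelihood test of edgeR, at an adjusted p under 0.05 over all genes, and 0 had an unadjusted p under 0.05. The test called 63.9% of all genes, 31.3% higher and 32.6% lower in tumors, and 67.9% had an unadjusted p under 0.05. The p-values measure the spread between these mice. The median log2 fold change of the members was -1.60, against 0.02 over all genes tested. Epcam averaged 63.1 ± 114 CPM in tumors and 72.9 ± 0.235 CPM in normal lung (SD, n = 4 and 2), and its log2 fold change was -0.21 ± 1.69 (SE, adjusted p = 0.921). Cdh1 averaged 61.2 ± 102 CPM in tumors and 411 ± 48.7 CPM in normal lung (log2 fold change -2.75 ± 1.37, adjusted p = 0.119). The smallest adjusted p, 0.0791, belonged to Krt7, at 72.2 ± 86.5 CPM in tumors and 305 ± 4.63 CPM in normal lung (log2 fold change -2.08 ± 0.89). Among the rest, the adjusted p ran from 0.0964 for Cldn3 (-2.86 ± 1.31) to 0.950 for Esrp1 (-0.14 ± 1.73). Their log2 fold changes were -1.73 ± 0.93 for Krt18, -1.61 ± 1.27 for Grhl2, -1.58 ± 1.41 for Krt8 and -1.26 ± 1.53 for Cldn7, and Cldn4 alone had a positive one (0.36 ± 1.07). The standard errors of the 10 members were all 0.89 or more on the log2 scale, so a miss of the threshold does not show that their levels were alike in both tissues.

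The call depended on 1 library. The members were chosen for varying between tumors and all stood highest in tumor 4, so leaving it out takes away both high levels and spread. The calls and p-values obtained without it are therefore descriptions. Without tumor 4, 10 of 10 members were lower in tumors by the same edgeR test, which then called 34.3% of all genes lower. The median log2 fold change was then -3.75 for members and -0.01 for all genes. The members were then 2.36-fold (Cldn4, adjusted p = 0.0122) to 39.2-fold lower (Cdh1, log2 fold change -5.29 ± 0.42, adjusted p = 0.000317). The claudins Cldn3 and Cldn7 changed by -5.01 ± 0.70 and -4.35 ± 0.41 (adjusted p = 0.00186 and 0.000498), Krt8 by -4.20 ± 0.52 (adjusted p = 0.0012) and Krt7 by -3.38 ± 0.28 (adjusted p = 0.000355). Epcam changed by -3.60 ± 0.57 (adjusted p = 0.0028), Krt18 by -3.16 ± 0.19 (adjusted p = 0.000169), Esrp1 by -3.62 ± 0.62 (adjusted p = 0.00375) and Grhl2 by -3.89 ± 0.36 (adjusted p = 0.000488). Leaving out any other single library gave 0 calls. With all libraries, limma voom called 7 members lower (35.8% of all genes), the exceptions being Epcam, Cldn4 and Esrp1. DESeq2 called Krt7 lower (log2 fold change -2.01, adjusted p = 0.0273) and gave no p-value for the other 9 members (32.9% of all genes were lower by it).

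**Figure D2:**
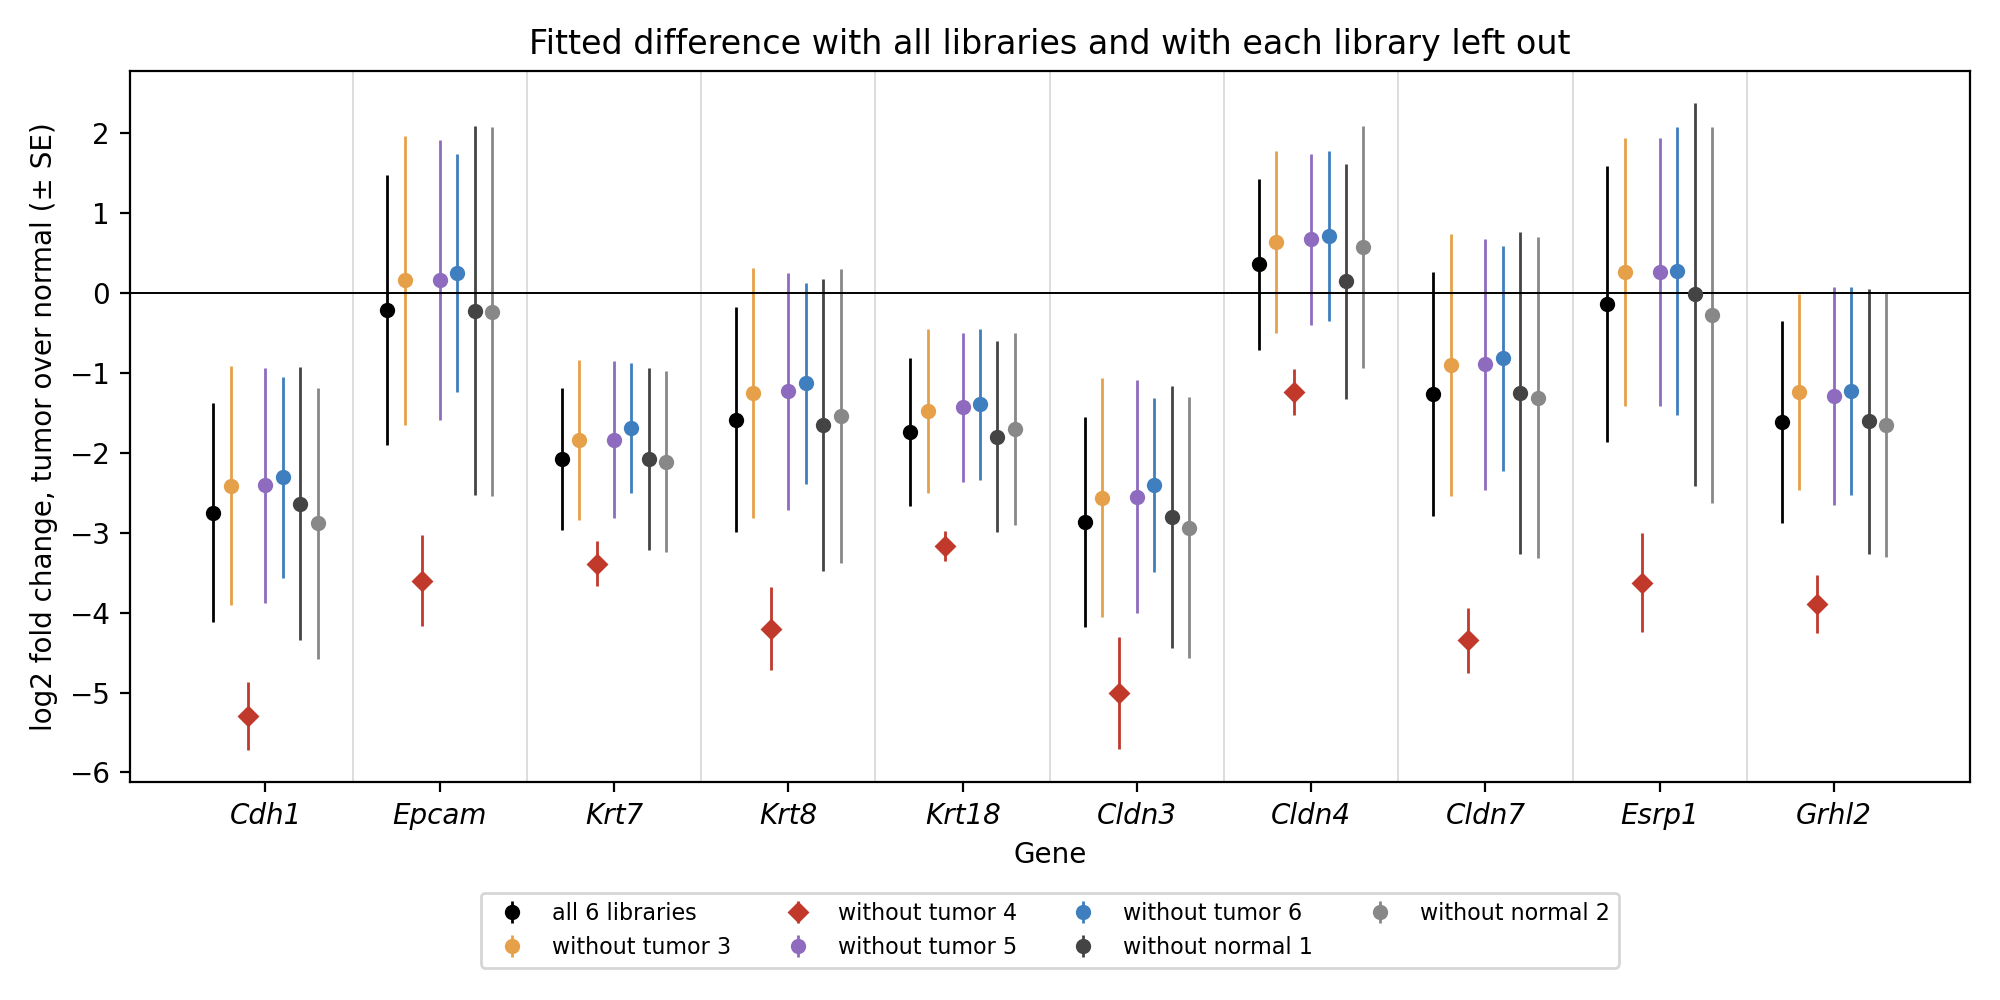
Log2 fold change of tumor over normal lung for each member, with its SE, fitted by edgeR with all 6 libraries and with each library left out. The red diamonds, fitted without tumor 4, lie below the other points for every gene, at -5.29 against -2.75 with all libraries for Cdh1 and at -1.24 against 0.36 for Cldn4.

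Other epithelial genes were read from 6 lists holding 95 genes, of which 89 were tested. With all libraries 45 were lower in tumors, 3 higher and 41 not called, with a median log2 fold change of -2.16. Of all genes tested, 32.6% were lower and 31.3% higher, with a median of 0.02, and the counts of each list below stand against these shares. Without tumor 4, 61 were lower and 3 higher. Tumor 4 was the highest tumor for 51 of the 89, against 28.6% of all genes, and tumor 6 for 22, against 25.1% of all genes.

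Most genes of adherens junctions were lower in tumors. Of 12 genes of adherens junctions and catenins, 10 fell, none rose and 2 were not called, with a median log2 fold change of -2.22. Vcl, the gene of vinculin, which links junctions to actin, fell by 3.14 ± 0.19 on the log2 scale (adjusted p = 5.42e-05), at 34.3, 44.4, 50.2 and 51.0 CPM in tumors 3 to 6 against 421 and 369 CPM in normal lung. Ctnnd1, which encodes p120-catenin and stabilizes cadherins at the membrane, fell by 2.52 ± 0.22 (adjusted p = 0.000185). Tumor 4 was not the highest tumor for either of them, but it was for 8 of the 12 genes, against 28.6% of all genes. The median span of the list between tumors was 0.92 on the log2 scale. Of 19 tight junction genes tested, 8 fell, none rose and 11 were not called, with a median of -2.20. Tjp1, which encodes a scaffold protein beneath claudins, fell by 2.53 ± 0.21 on the log2 scale (adjusted p = 0.000137). The count of tight junction genes lower was 16 with limma voom, 16 without tumor 4, 4 without normal 1 and 5 without normal 2.

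Single tight junction genes, chosen after their values were seen, differed in their pattern over the tumors. Ocln, the gene of occludin, had 4.49, 82.5, 3.74 and 1.60 CPM in tumors 3 to 6, against 112 and 101 CPM in normal lung. Cldn6, a claudin of embryonic epithelium, had 0.358, 29.7, 0.547 and 0.0299 CPM in tumors 3 to 6, against 0.284 and 0.173 CPM in normal lung. Tumor 4 was thus the single library with more than 1 CPM of Cldn6. Cldn18, the claudin of alveolar epithelium, went another way, with 31.6, 23.6, 33.5 and 0.150 CPM in tumors 3 to 6, against 921 and 773 CPM in normal lung (log2 fold change -5.25 ± 1.37, adjusted p = 0.0141).

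Of 10 desmosome genes tested, 2 rose, 1 fell and 7 were not called, against 31.3% of all genes higher and 32.6% lower. Tumor 6 was the highest tumor for 6 of them and tumor 4 for 3, against 25.1% and 28.6% of all genes. The median log2 fold change of these 10 was -1.02. Without tumor 6, 3 fell, with limma voom 5, and without tumor 5 or either normal library 1 rose. Dsc2, a desmosomal cadherin gene, rose in each tumor to 11.8, 15.5, 37.1 and 26.2 CPM, against 1.39 and 2.07 CPM in normal lung (log2 fold change 3.71 ± 0.59, adjusted p = 0.00185). Dsc3 had 448 counts in tumors, 396 of them in tumor 6, and 0 in normal lung. With the normal group set to its floor of 3 counts in all, that is at least 109-fold higher in tumors (17.0-fold by the same floor without tumor 6; adjusted p = 0.0394, but 0.119 without normal 1, 0.113 without normal 2 and 0.0563 without tumor 5). Pkp3, the plakophilin 3 gene, fell by 3.22 ± 0.66 (adjusted p = 0.00518). Dsp, the gene of desmoplakin, chosen after its values were seen, was high in a pair of tumors, with 4.28, 137, 4.57 and 60.5 CPM in tumors 3 to 6, against 201 and 163 CPM in normal lung.

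Of 9 other keratins tested, 1 rose, 2 fell and 6 were not called. Tumor 6 was the highest tumor for 7 of them, against 25.1% of all genes, and tumor 4 for none, while Krt7, Krt8 and Krt18 were highest in tumor 4. The median log2 fold change of the 9 genes was 3.07, and -2.37 without tumor 6, when 5 of them fell. It was 0.51 with limma voom. Krt19, a keratin of simple epithelia like the members, fell by 4.96 ± 0.49 (adjusted p = 0.000264), with 9.64, 5.09, 6.67 and 2.42 CPM in tumors 3 to 6, against 181 and 189 CPM in normal lung. Tumor 4 was not the highest for it. Krt80 fell by 4.28 ± 0.75 (adjusted p = 0.00271). Krt17 rose to 11.8, 1.77, 4.48 and 5.27 CPM in tumors 3 to 6, against 0 and 0.194 CPM in normal lung (log2 fold change 5.90 ± 1.58, adjusted p = 0.0155, and 4.89 without normal 1 and 5.30 without tumor 3). Without normal 2 no normal count of Krt17 was left. Krt4 and Krt13, the keratin pair of stratified mucosa, chosen after their values were seen, had 645 and 555 CPM in tumor 6 and less than 1 CPM in each other tumor and in both normal libraries.

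**Figure D3:**
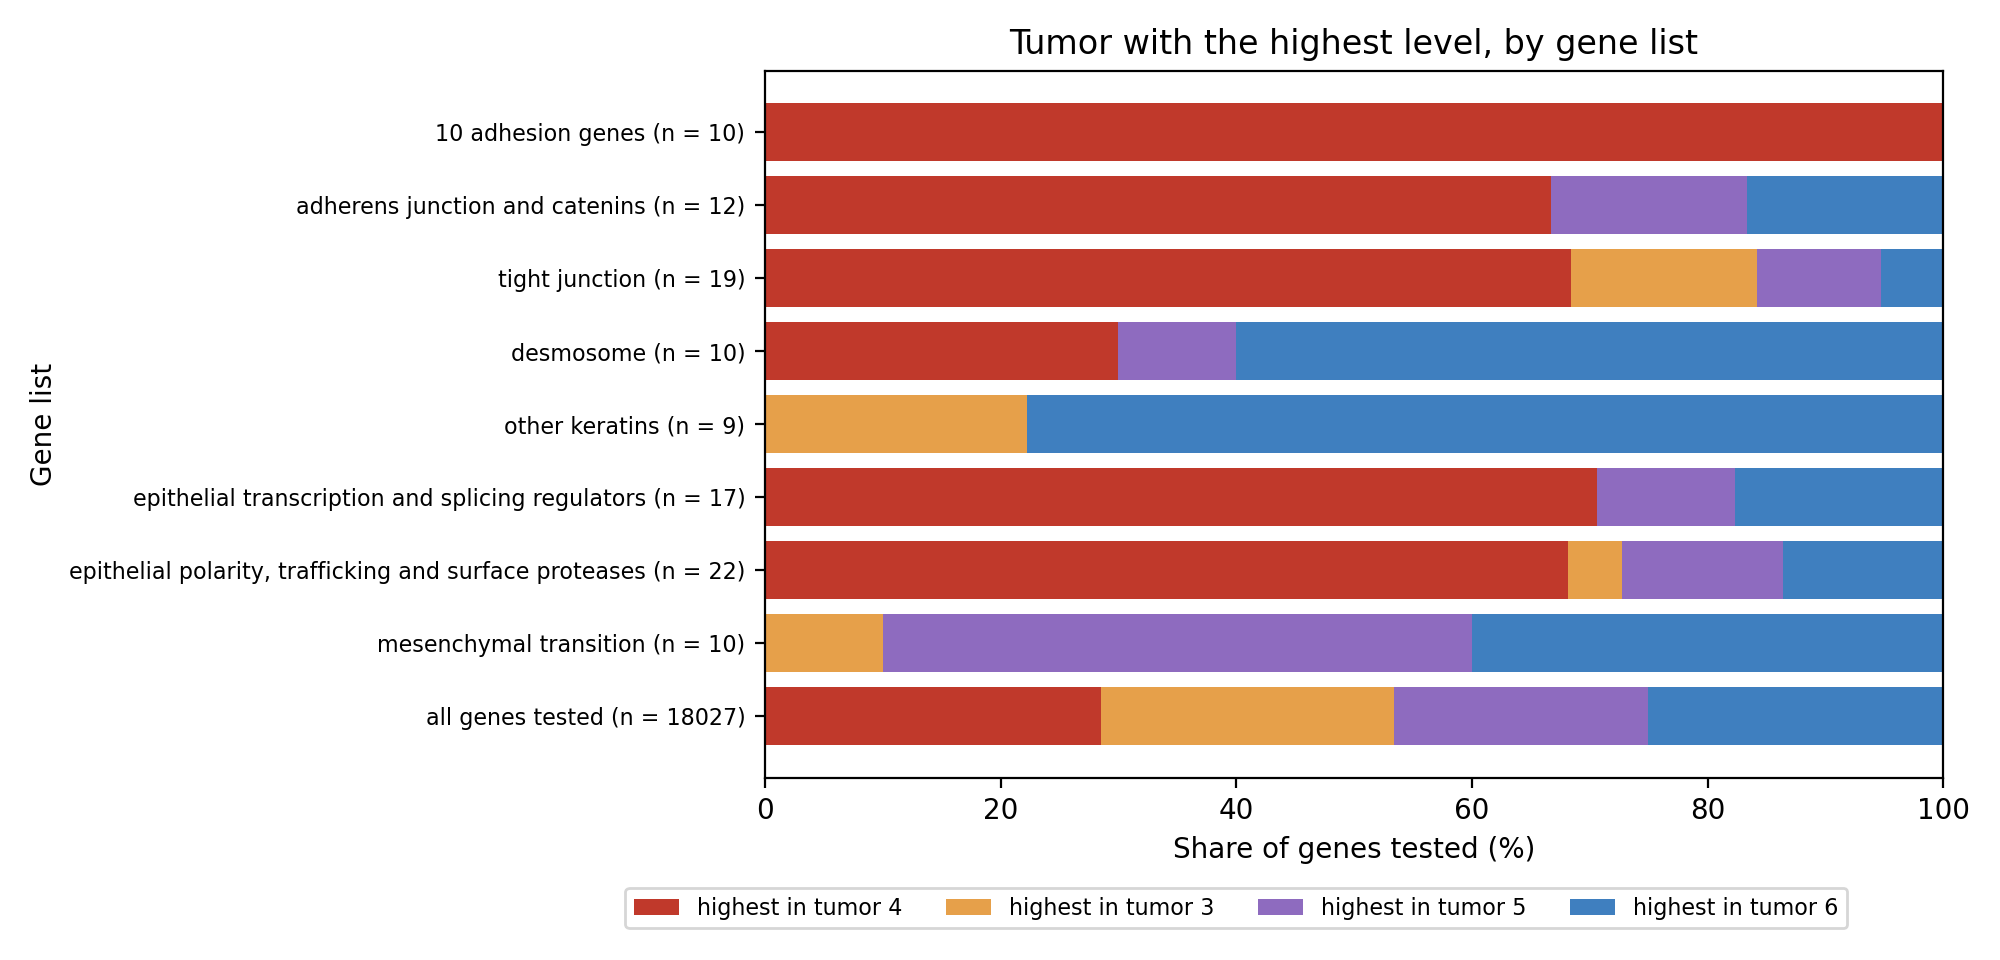
Share of the genes tested in each list whose highest tumor level was in tumor 4, 3, 5 or 6, with the number of genes tested in brackets. Tumor 4 was highest for 10 of 10 members and for 13 of 19 tight junction genes, while tumor 6 was highest for 7 of 9 other keratins.

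Relatives of the regulators showed which family members moved with Esrp1 and Grhl2. Of 17 epithelial transcription and splicing regulators, 7 fell, none rose and 10 were not called, with a median log2 fold change of -1.37, and tumor 4 was the highest tumor for 12. Esrp2, the close relative of Esrp1, had 1.83, 34.0, 1.86 and 2.51 CPM in tumors 3 to 6, against 34.2 and 34.8 CPM in normal lung, so tumor 4 was at the normal level and the other three far below (log2 fold change -1.78 ± 1.25, adjusted p = 0.245, and -4.06 without tumor 4, adjusted p = 0.000156). Grhl1 had 2.41, 7.93, 2.12 and 4.97 CPM in tumors 3 to 6, against 12.1 and 10.4 CPM in normal lung (adjusted p = 0.0664, and 0.0124 without tumor 4). Grhl3 did not share the pattern, with 0.641, 0.0982, 0.443 and 4.91 CPM in tumors 3 to 6, against 1.13 and 1.04 CPM in normal lung, and it was lowest in tumor 4 (adjusted p = 0.766).

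The Ovol genes encode repressors that keep mesenchymal genes off in epithelia. Ovol1 had 0.104, 10.1, 0.143 and 3.04 CPM in tumors 3 to 6, against 2.59 and 2.83 CPM in normal lung (adjusted p = 0.884). Ovol2 fell by 4.11 ± 0.62 (adjusted p = 0.00143) and stayed at or under 0.295 CPM in every tumor, tumor 4 included, against 2.92 and 2.29 CPM in normal lung. Rbm47, the gene of an RNA-binding protein of epithelia, and Tfcp2l1, a Grainyhead-related factor, also fell, the first by a log2 fold change of -3.85 ± 0.22 (adjusted p = 4.34e-05) and the other by -4.71 ± 0.58 (adjusted p = 0.000604).

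Among 22 genes of polarity, epithelial trafficking and surface proteases, 17 fell, none rose and 5 were not called, with a median log2 fold change of -2.95. Prkci, the atypical protein kinase C of the apical Par complex, fell by 2.16 ± 0.13 (adjusted p = 5.31e-05), at 48.5, 52.4, 54.1 and 46.3 CPM in tumors 3 to 6 against 234 and 215 CPM in normal lung. Ceacam1, the gene of a cell adhesion molecule, fell by 4.73 ± 0.30 (adjusted p = 6.11e-05). Ap1m2, chosen after its values were seen, encodes the epithelial sorting adaptor and had 2.32, 63.7, 1.90 and 1.88 CPM in tumors 3 to 6, against 34.1 and 32.7 CPM in normal lung.

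Tumor 4 was not the highest tumor for any of the 10 genes of mesenchymal transition, and it was for 28.6% of all genes. Of the 10, 7 fell, 2 rose and 1 was not called, against 32.6% of all genes lower and 31.3% higher. Their median log2 fold change was -2.55. Cdh2, the gene of N-cadherin, rose by 3.27 ± 0.30 (adjusted p = 0.000204), to 80.5, 66.4, 110 and 88.7 CPM in tumors 3 to 6, against 7.22 and 10.6 CPM in normal lung, and tumor 4 had it as well as Cdh1. The ratio of Cdh1 to Cdh2 counts was 0.162, 3.21, 0.116 and 0.0629 in tumors 3 to 6, against 61.7 and 35.4 in normal lung. Twist1 had 108 counts in tumors and 0 in normal lung, at least 26.3-fold higher by the same floor (adjusted p = 0.00367). Vim, the gene of vimentin, fell by 3.15 ± 0.23 (adjusted p = 0.000101), to 90.1, 91.0, 69.2 and 124 CPM in tumors 3 to 6, against 818 and 837 CPM in normal lung.

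The repressors of Cdh1 were low in tumors too. Zeb2 fell by 3.25 ± 0.39 (adjusted p = 0.000557), with 29.6, 18.9, 52.3 and 23.2 CPM in tumors 3 to 6, against 307 and 282 CPM in normal lung. Zeb1 had 82.3, 44.7, 113 and 96.5 CPM in tumors 3 to 6, against 179 and 170 CPM in normal lung. It fell by 1.05 ± 0.33 (adjusted p = 0.0291), a call that was lost without normal 1 (0.118), normal 2 (0.0947), tumor 3 (0.0658) or tumor 6 (0.0562). Snai1 had 0.656, 0.609, 0.925 and 0.658 CPM in tumors 3 to 6, on 44, 31, 71 and 44 counts, against 6.22 and 7.42 CPM in normal lung. Snai2 had 0.387, 0.432, 0.729 and 0.883 CPM in tumors 3 to 6, against 7.12 and 6.35 CPM in normal lung. Whether these repressors bear on the members' levels was not tested. Snai1 fell by 3.26 ± 0.33 on the log2 scale (adjusted p = 0.000306) and Snai2 changed by -3.46 ± 0.43 (adjusted p = 0.000655), both under 1 CPM in every tumor.

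The genes whose pattern over the 4 tumors came closest to the members' mean profile were sought among 13087 genes outside the members with a mean log2 CPM of at least 1. The 6 nearest were Espn, Syne4, Aldh1b1, Cdcp1, St14 and Dapp1, with root mean square differences of 0.20 to 0.26 on the log2 scale, each closer than 9 of the 10 members were to that profile. Espn, which encodes an actin-bundling protein of microvilli, had 1.34, 16.6, 1.38 and 0.703 CPM in tumors 3 to 6, against 2.83 and 2.84 CPM in normal lung. Aldh1b1, a mitochondrial aldehyde dehydrogenase gene, had 2.73, 50.3, 2.33 and 1.26 CPM in tumors 3 to 6, against 1.85 and 4.37 CPM in normal lung. Syne4, the gene of a nuclear envelope protein that binds kinesin motors, had 2.71, 31.3, 2.11 and 1.71 CPM in tumors 3 to 6, against 1.91 and 2.05 CPM in normal lung. For these genes tumor 4 stood far above normal lung, while its place above the other tumors was set by the search. St14, the gene of the surface protease matriptase, had 3.56, 62.5, 2.54 and 1.62 CPM in tumors 3 to 6, against 50.2 and 47.8 CPM in normal lung. Cdcp1, a surface glycoprotein gene, and Dapp1, an adaptor gene of lipid signaling, reached 48.8 and 46.6 CPM in tumor 4, at most 2.93 CPM in another tumor, and 18.7 to 22.6 CPM in normal lung.

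**Figure D4:**
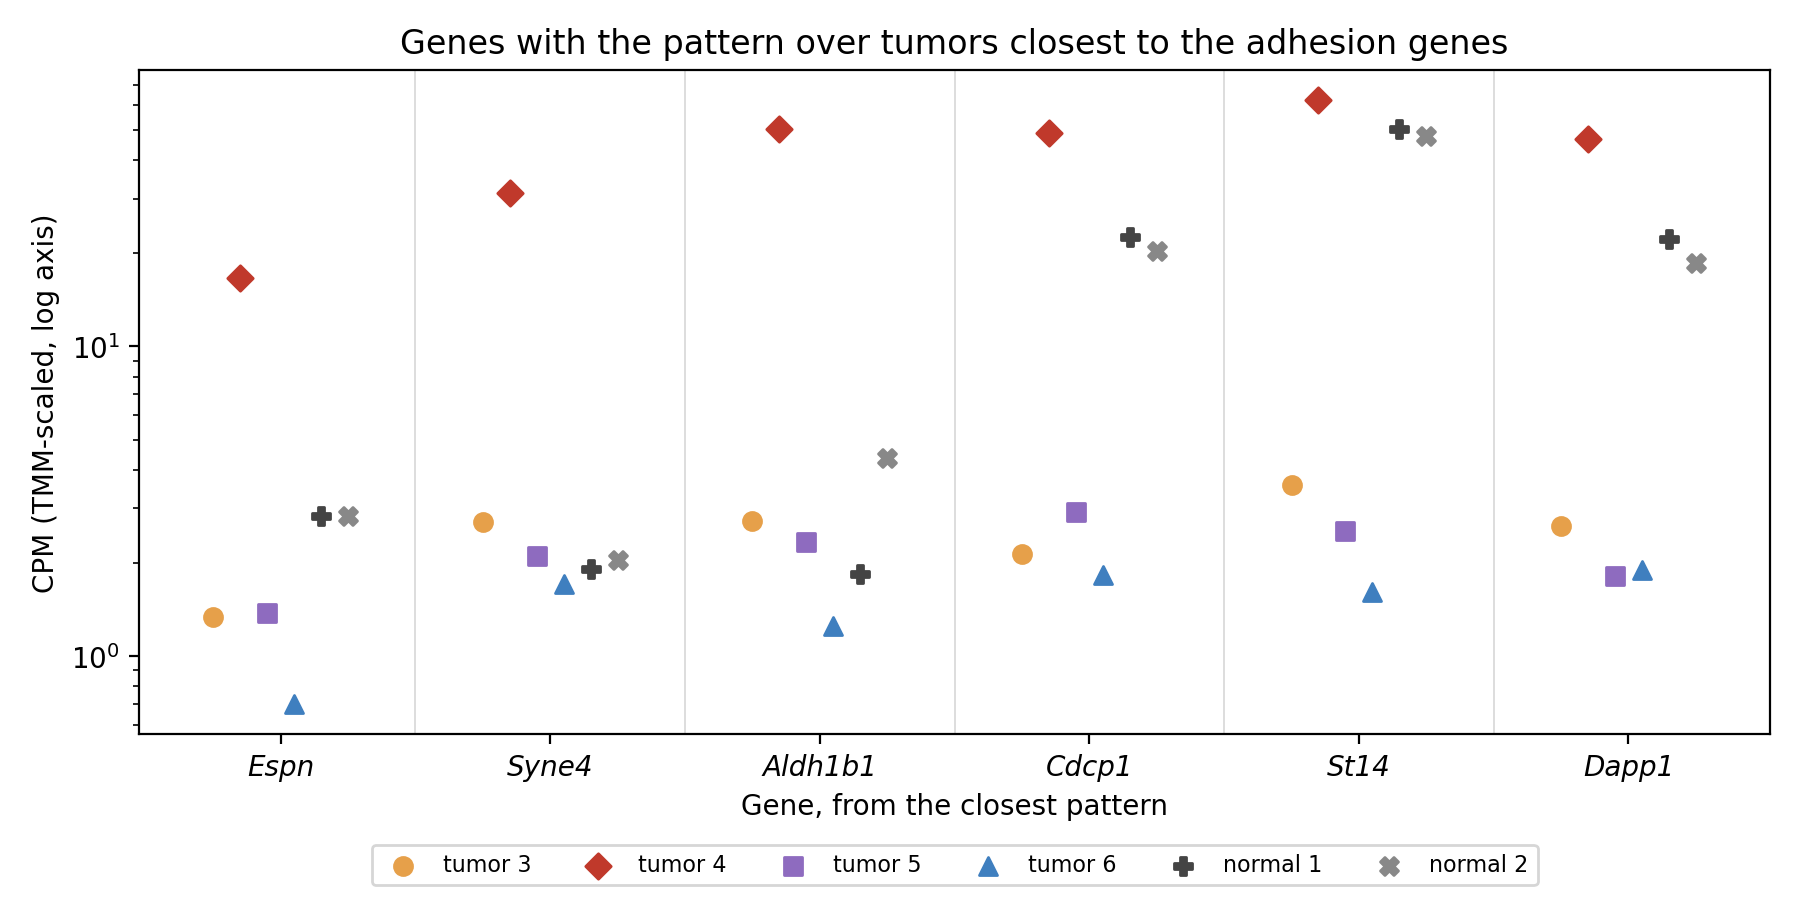
Level of the 6 genes whose pattern over the 4 tumors was closest to that of the adhesion genes, in CPM on a log axis with 1 point per library. By that choice tumor 4 was the highest tumor for each, at 16.6 CPM for Espn to 62.5 CPM for St14. The normal levels, which did not enter the choice, ran from below 3 CPM for Espn and Syne4 to 50.2 CPM for St14.

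Normal lung epithelium expresses the members, so markers of its cells are given beside them. The 10 markers of alveolar type 2 cells summed to 1627, 1176, 1407 and 239 CPM in tumors 3 to 6, against 30034 and 27214 CPM in normal lung. Of these, 10 of 10 were called lower, against 32.6% of all genes. Lyz2 made up 1034, 590, 613 and 176 CPM of the type 2 sums in tumors 3 to 6, and Sftpc 340, 260, 400 and 4.79 CPM. Alveolar type 1 markers summed to 169 to 240 CPM in tumors, against 9748 to 10914 CPM in normal lung. Among them Ager had 45.2, 43.0, 51.3 and 1.59 CPM in tumors 3 to 6, and Cav1 28.4, 26.7, 29.6 and 80.1 CPM. A span of at least 3 on the log2 scale between tumors occurred in 8 of 10 type 2 and 2 of 10 type 1 markers. It occurred in 8.33% of all genes. The 9 club and secretory markers summed to 542, 113, 215 and 255 CPM in tumors 3 to 6, against 37817 and 35120 CPM in normal lung, and the 9 ciliated markers to 68.5, 37.6, 57.8 and 66.4 CPM in tumors, against 3269 and 3021 CPM in normal lung. By these sums tumor 4 was not the highest tumor on any of these lists and was the lowest on the club and ciliated ones. Gene by gene, it was highest for 3 of 10 alveolar type 2, 2 of 10 type 1, 0 of 9 club and 1 of 9 ciliated markers. It was highest for 28.6% of all genes. The 5 basal cell markers summed to 3.10, 0.196, 1.86 and 39.5 CPM in tumors 3 to 6, against 1.97 and 4.87 CPM in normal lung, and 3 of the 5, Krt5 and Krt15 among them, had 0 counts in tumor 4. Mesothelial markers summed to 247, 41.8, 153 and 62.7 CPM in tumors 3 to 6, against 321 and 319 CPM in normal lung. Most of the tumor sums was Gpm6a, at 233, 34.1, 145 and 58.9 CPM, against 162 and 158 CPM in normal lung. Msln had 8.39, 4.67, 5.00 and 2.38 CPM in tumors 3 to 6, against 62.6 and 59.8 CPM in normal lung. Of the 5 mesothelial markers 4 were called lower, as were 32.6% of all genes.

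The 10 members together summed to 98.9, 1244, 88.2 and 57.1 CPM in tumors 3 to 6, against 1325 and 1260 CPM in normal lung. Neuroendocrine markers, which define this tumor type, summed to 1856, 2026, 2097 and 1425 CPM in tumors 3 to 6, against 29.5 and 40.9 CPM in normal lung. Of these markers, 15 of 15 were called higher, against 31.3% of all genes. Within them, 2 genes chosen after their values were seen differed in tumor 4. Calca, the gene of calcitonin and CGRP, had 20.3, 293, 54.3 and 5.86 CPM in tumors 3 to 6, against 1.96 and 1.40 CPM in normal lung, so it was highest in tumor 4. Neurod1, the gene of a neurogenic transcription factor, had 40.7, 7.95, 41.0 and 25.8 CPM in tumors 3 to 6, against 0 and 0.129 CPM in normal lung, and was lowest in tumor 4. Endothelial markers summed to 125, 207, 136 and 79.8 CPM in tumors 3 to 6, against 4848 and 4437 CPM in normal lung. Without Vwf, which had 99.6 CPM in tumor 4, they summed to 106, 107, 120 and 75.9 CPM in tumors 3 to 6, against 4241 and 3907 CPM in normal lung. Of the 10 endothelial markers 7 were highest in tumor 5, against 21.5% of all genes. Fibroblast markers summed to 493, 350, 436 and 1111 CPM in tumors, against 2243 and 2217 CPM in normal lung. T and NK cell, B and plasma cell and macrophage markers summed to 3.89 to 9.13, 8.30 to 89.8 and 129 to 226 CPM in tumors, against 33.3 to 40.2, 72.9 to 124 and 391 to 422 CPM in normal lung. What part cells other than tumor cells had in the members' levels was not tested.

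**Figure D5:**
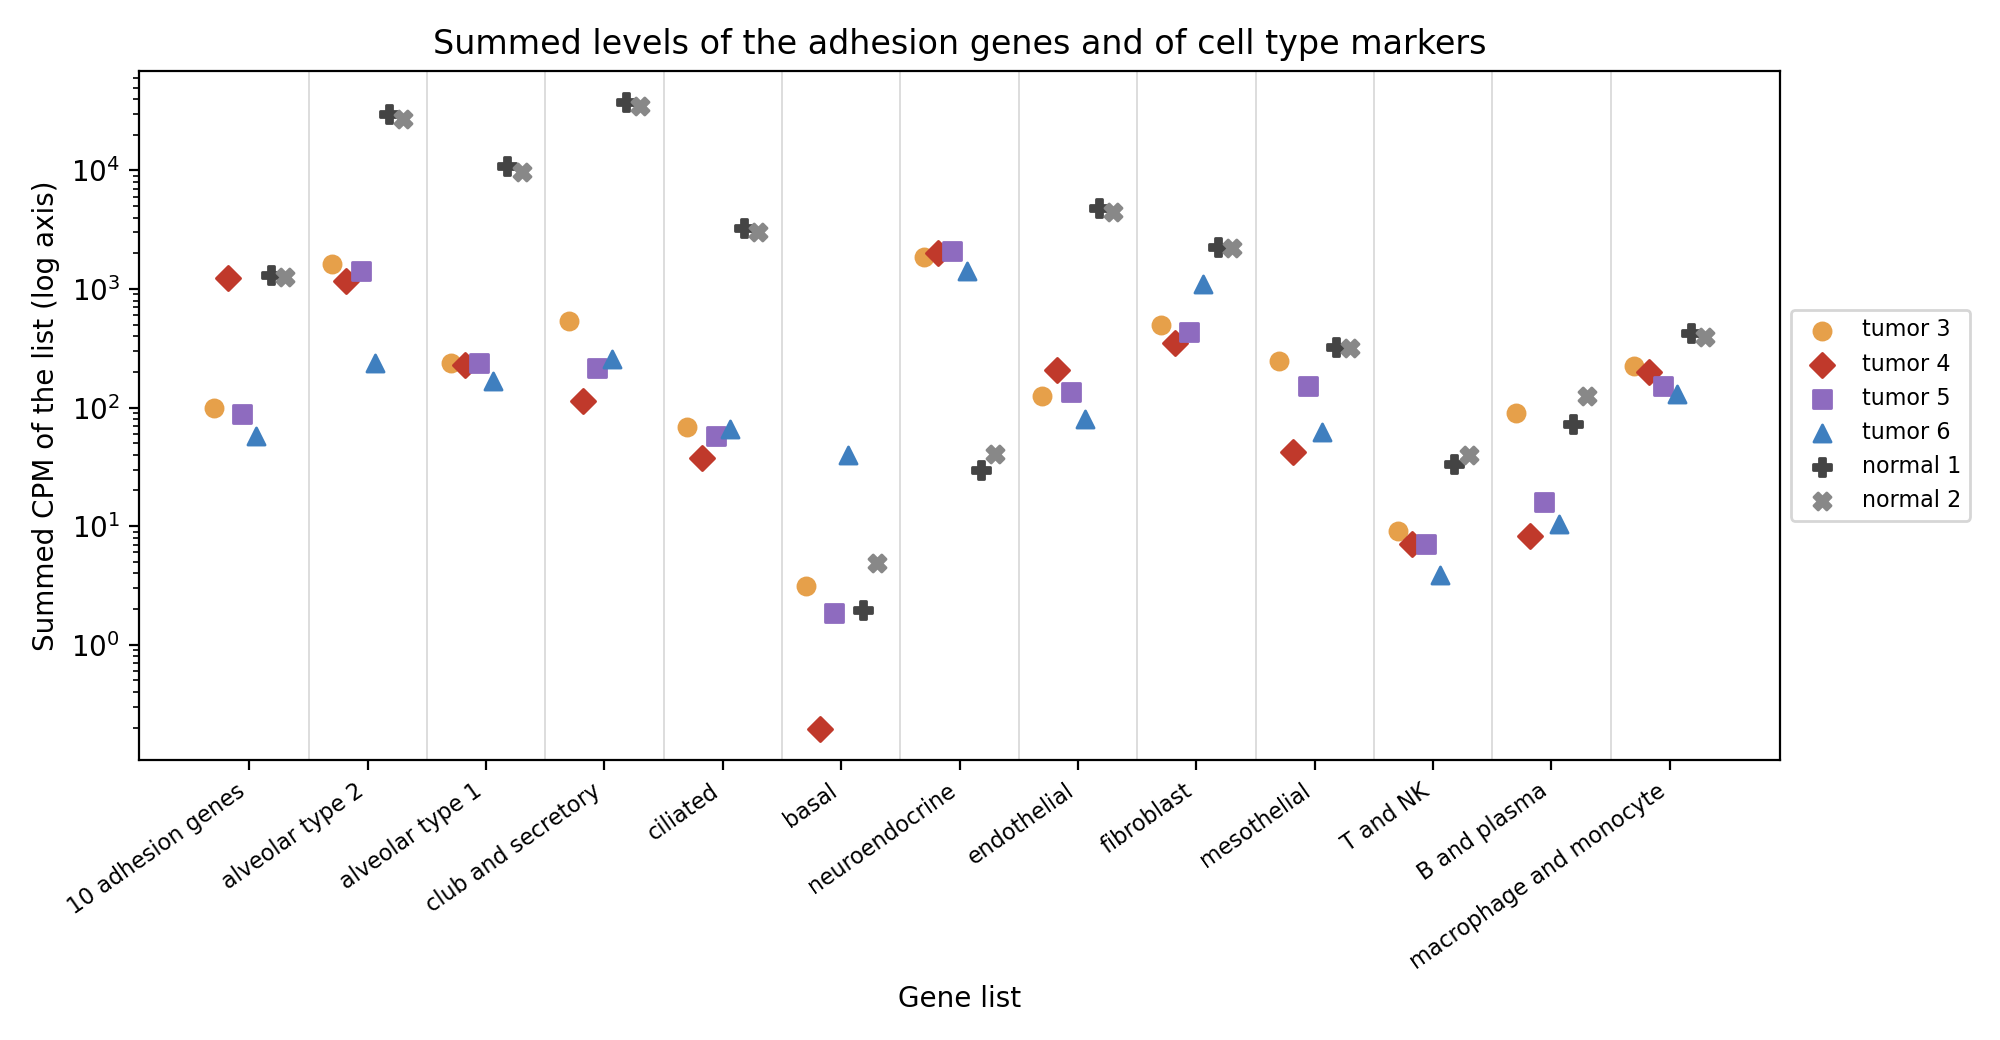
Summed CPM of the 10 adhesion genes and of each cell type marker list in each library, on a log axis with 1 point per library. The adhesion genes reached 1244 CPM in tumor 4 and 57.1 to 98.9 CPM in the other tumors. The alveolar type 1 sums of the 4 tumors lay between 169 and 240 CPM, but single markers were less even. Of these, Ager had 1.59 CPM in tumor 6 and 43.0 to 51.3 CPM in the other tumors.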

How the data were processed

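The deposited values are raw gene counts that the authors made with TPMCalculator, per the labels, from poly(A)-selected RNA of flash-frozen tissue. Per the submitters' processing notes the build was mm9, and the tools included STAR 2.5.4a, Trimmomatic 0.36 with Trim Galore, R 3.5.1 and DESeq2 1.22.2. The strand setting and gene annotation behind the counts are not known here.

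Libraries were grouped by tissue type, as 4 tumors and 2 normal. The quasi-likelihood test was that of edgeR 4.0.16 (R 4.3.3), run after TMM scaling on genes kept by filterByExpr (per group, minimum count 10 and minimum total 15). Adjustment was by Benjamini-Hochberg over 18027 genes at a threshold of 0.05, and the common coefficient of biological variation came to 0.433. Log2 CPM used a prior count of 2. Alternatives were other scalings and filters, DESeq2 1.42.0, limma 3.58.1 voom and leaving out each library. The script was tested on simulated data.

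The members and lists were chosen with earlier results of these data known. Named beyond the members were up to 2 called genes per direction and list, by smallest p, a set of regulators and mesenchymal genes, the 6 genes nearest in pattern and the 2 most abundant markers per list, of which the text gives a part. Genes outside this rule are said to have been chosen after their values were seen. Promoters and overlaps come from GENCODE and RefSeq tables for GRCm38 (21149 symbols matched RefSeq), and no mm9 coordinates are used. Some results are not reported here.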

Additional observations from a re-analysis of the deposited data

Results flagged for a closer look

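In 3 genes the gap between the highest tumor and the next was large against the range of the 4 tumors. Divided by that range on the log2 CPM scale, it was past the limit of 0.829 for 4 values. Tumor 4 was the high value in each of the 3, which are not all of the genes named above that passed. The ratio was 0.845 for Krt18, 0.905 for Cldn4 and 0.893 for Esrp2. Chance passes this limit in about 1 of 20 groups, and 5.81% of all genes tested passed it with a high or low tumor. The members were chosen for varying between tumors, so these ratios are descriptions.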

How the results depend on the processing

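Which members were called depended on tumor 4 and on the tool. The count of members lower in tumors was 0 with all libraries in edgeR and 7 with limma voom. It was 0 to 10 when 1 library was left out, the 10 without tumor 4. DESeq2 called 1 lower but gave a p-value for only that 1 of the 10 members, so its count cannot be set beside the others. The members' median span between tumors, 5.45 on the log2 scale, was 1.25 to 5.45 with 1 tumor left out, the low value without tumor 4. These leave-outs were added after the data were seen. All 10 members stayed highest in tumor 4 under every scaling. Over all genes, 5638 were higher in tumors, or 3373 to 5912 with 1 library left out, with 3373 without normal 1 and 3740 without normal 2. Of the other epithelial genes 3 were higher, or 5 with RLE factors, upper quartile scaling or RNAs without a poly(A) tail removed, and 2 to 6 with 1 library left out. The mesenchymal count of 2 higher was 1 with the stricter filter.

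With 1 library left out, log2 fold changes ran from -3.60 to 0.25 for Epcam, -1.24 to 0.72 for Cldn4, -3.62 to 0.28 for Esrp1, -1.34 to 0.89 for Grhl3 and -1.30 to 0.71 for Ovol1. With limma voom they were -0.52 for Cldn4, -0.72 for Grhl3 and -1.84 for Ovol1. None of these genes passed the edgeR test with all libraries, and the causes of these shifts beyond the missing library were not tested. With normal 1 or 2 left out, the spread of normal lung was taken to be that of the tumors. The median log2 fold change of all genes, 0.02, was 0.14 with upper quartile scaling and 0.12 without the filter, where the members' medians were -1.49 and -1.63. No paired analysis was possible because tumors and normal lung share no replicate number.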
